A study of Mus musculus with 4 samples.

Results

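The genes of the mouse histone clusters were followed here on 4 expression arrays of RAW264.7, an established mouse macrophage-like cell line. Members were all non-control probes whose gene name on the array design begins with Hist1h, Hist2h, Hist3h or Hist4h. This rule took 54 of 55681 probes, for 49 gene names of 36163, and it used no measured value. The study stably integrated the vector pcDNA6.2-GW/EmGFP-miR, which makes an artificial microRNA, and selected the cells with blasticidin as bulk cultures. One line carried a scramble microRNA and the other a microRNA for Linc-AAM knockdown, Linc-AAM being a long intergenic non-coding RNA. Each line was kept for 4 h in DMEM medium alone or with 50 µg/mL AEPS, a polysaccharide from the roots of Actinidia eriantha. The 4 groups thus held 1 array each, RNA was labelled in 1 colour (Cy3), and all groups carried a vector, so no culture without one was compared.

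Histone proteins form the spool on which DNA is wound: H2A, H2B, H3 and H4 make the nucleosome core, and H1 sits on the linker between cores. Most genes of the clusters are replication-dependent: dividing cells transcribe them mainly in S phase, when new DNA has to be packed. Their mRNAs usually end in a conserved stem-loop in place of a poly(A) tail, and the stem-loop is bound by the protein SLBP. Several cluster genes can also give longer, polyadenylated transcripts that run past the stem-loop. Which primer copied the RNA before labelling, the sources used here do not give.

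The probes are 60 bases long, and some of them hold the stem-loop itself. A script searched each probe for a stem of 6 bases beginning with GG, a loop of 4 bases and the matching second arm. The full structure stood in 6 of the 54 member probes (11.1%), against 44 of all 55681 (0.079%), and its commonest form was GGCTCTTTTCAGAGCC. A further member, Hist1h2ae, began inside that sequence, and no other probe on the array did. These 7 probes are shown because they tell where along the transcript each signal was read. In the 30-base windows the stem-loop is in capitals and the strand is that of the mRNA.
Hist1h3a: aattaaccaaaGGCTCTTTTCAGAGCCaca
Hist1h3g: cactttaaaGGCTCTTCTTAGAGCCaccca
Hist1h3i: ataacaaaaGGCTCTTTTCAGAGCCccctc
Hist2h2bb: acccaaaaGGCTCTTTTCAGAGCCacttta
Hist1h4m: caactaaaGGCCCTTTTCAGGGCCatccaa
Hist2h2aa1: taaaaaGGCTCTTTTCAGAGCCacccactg
Hist1h2ae: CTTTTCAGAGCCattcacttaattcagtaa
In the first 5, between 3 and 6 bases of the probe lie past the stem-loop, so nearly the whole probe reads the part before it and the stem-loop. In Hist2h2aa1, 38 bases lie past it, and in Hist1h2ae 48 bases do.

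A second group of probes reads nearly the same stretch of several H2A genes, and these are shown because their signals cannot be assigned to 1 gene. Capitals mark the bases that differ from the probe of Hist1h2ak when the sequences are laid side by side without a gap. Bases that overhang that probe, as at the start of Hist1h2ah, were not compared and stay in lower case. All are written 5′ to 3′ on the mRNA strand.
Hist1h2ak: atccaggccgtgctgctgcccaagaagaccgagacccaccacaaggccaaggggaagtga
Hist1h2ah: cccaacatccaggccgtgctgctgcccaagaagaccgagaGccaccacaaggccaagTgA
Hist1h2af: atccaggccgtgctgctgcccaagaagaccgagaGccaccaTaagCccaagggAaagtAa
Hist2h2aa2: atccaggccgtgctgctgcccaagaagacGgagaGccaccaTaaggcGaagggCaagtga
Hist1h2an: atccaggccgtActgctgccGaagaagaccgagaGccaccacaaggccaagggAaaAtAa
With Hist1h2ag, 5 probes aligned to Hist1h2ak in this way, with 3 to 6 differing bases and 90.0% to 94.4% identity. Identity is over the aligned bases, which were 54 for Hist1h2ah, 48 for Hist1h2ag and 60 for the others. In Hist1h2ah the last capitals set its closing tga against ggg of Hist1h2ak, so a gap would change its count and identity. The probe of Hist2h2ac aligned too poorly without a gap to be counted, and its longest run shared with Hist1h2ak was 34 bases. This makes 7 near-identical H2A probes in all. Over the whole group of members, 16 shared a run of at least 20 bases with another member, and 9 shared one with a probe of a gene outside the rule. Among the 16, Hist1h3a, Hist1h3i, Hist2h2aa1 and Hist2h2bb matched only one another. Their shared runs, of 20 to 22 bases, are the stem-loop with a few bases beside it.

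Between 53.4% and 58.0% of the non-control spots were well above background on an array, no spot was saturated, and all 4 arrays lay on 1 slide and in 1 scan. A level is given below as log2 of the processed intensity minus the array's 75th percentile, so that a level of 0 is as bright as that percentile. Probes differ in how strongly they bind, so a difference in level between probes is not read as one between genes. Of the 54 members, 48 were well above background on all 4 arrays and 1, Hist1h2ac, on both AEPS arrays alone. The other 5 were not well above background on any array: Hist1h1d, Hist1h2bq, Hist3h2ba, Hist3h2bb-ps and 1 of the 2 probes of Hist4h4. The 9 macrophage markers tested against the cell line label were all well above background on the 4 arrays. Linc-AAM stood in 0 gene names of the design, so the knockdown itself was not checked here. The value table that the authors deposited ranks the probes of each line like the scanner file of the other line almost exactly, and less like its own (Spearman's rho across probes 0.969). Which of the sources names the lines correctly could not be settled. Lines are called here by the labels of the scanner files, and every difference between the lines has the opposite sign under the labels of that table.

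The first comparison asks what AEPS did to histone mRNA. Levels of most histone cluster probes were lower after 4 h of AEPS, in all 5 histone classes. Line and treatment entered an additive limma model over the 31268 probes that were well above background on at least 2 arrays, and calls were made at a Benjamini-Hochberg adjusted p under 0.05. Of the 49 members that passed this filter, 15 fell and 1 rose, where 6.86% of all probes tested were called lower and 6.89% higher. The 15 fell by 1.60-fold to 2.52-fold, with adjusted p between 0.0168 and 0.0490. The median AEPS effect over the 49 was -0.49 on the log2 scale, against 0.06 over all probes tested, and it was below 0 in 42 of 49 members against 43.7% of all. For all 15 probes called lower, both DMEM arrays lay above both AEPS arrays. This held for 39 of the 49 members and for 25.3% of all probes tested. The count of members called lower was 29 with normexp background correction, where 10.9% of all probes were called lower. It was 37 with an intensity trend in the variance prior, where 13.4% were, and 0 without a filter on dim probes. In that unfiltered limma fit 1021 of 55657 probes were called. The model leaves 1 residual degree of freedom, which is the difference in AEPS response between the lines. A true difference of that kind is thus counted as error. Nothing in the labels says that a culture was repeated, so the p-values do not measure the spread between repeated cultures.

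**Figure D1:**
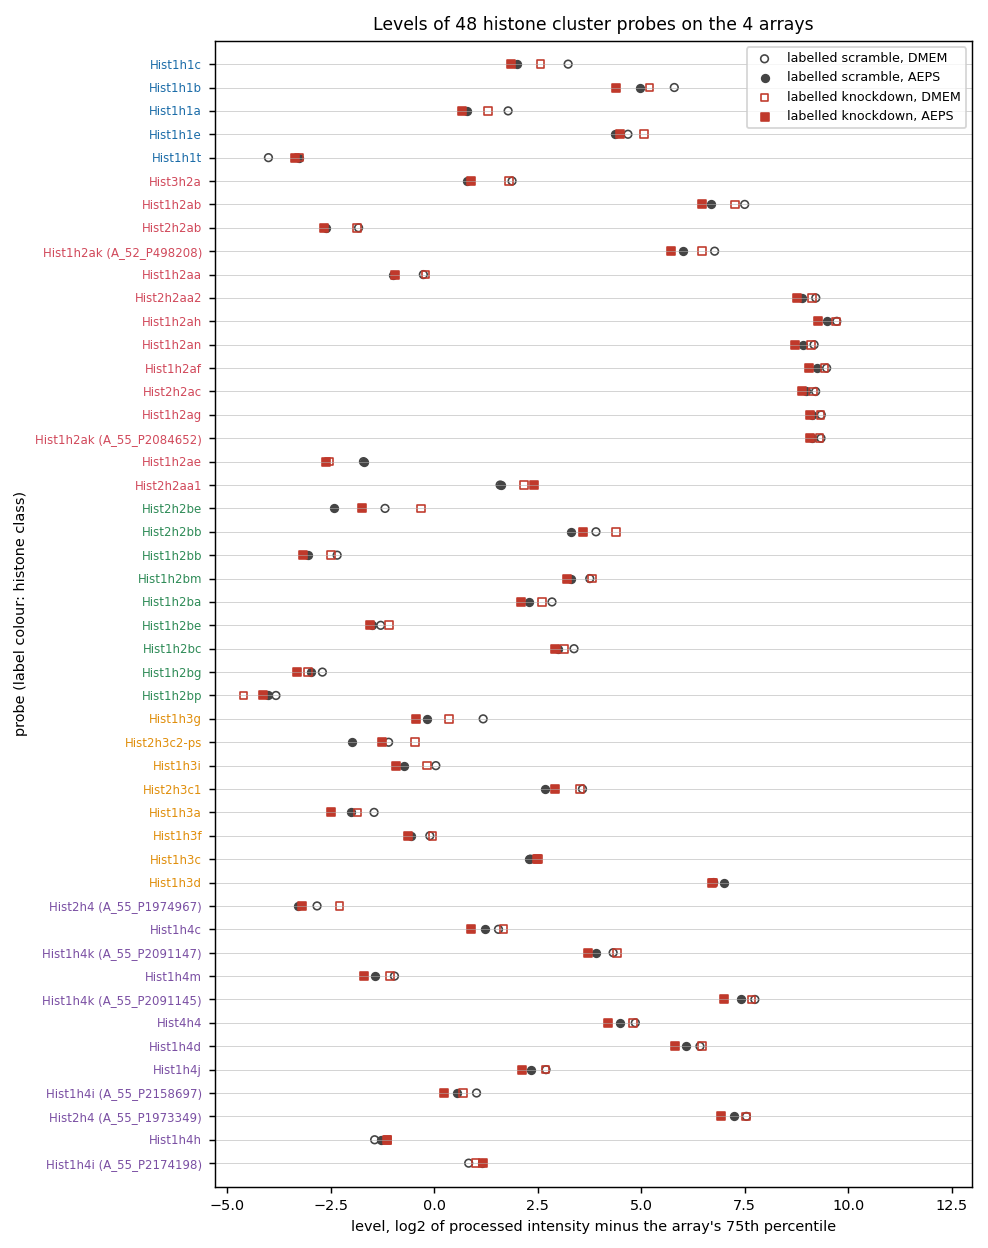
Level of the 48 histone cluster probes well above background on all 4 arrays, in log2 of processed intensity minus the array's 75th percentile (horizontal axis), 1 row per probe, grouped by histone class through the colour of the label. Open symbols are the DMEM arrays and filled symbols the AEPS arrays, circles the scramble-labelled and squares the knockdown-labelled line; in most rows the filled symbols lie to the left of the open ones, while the 7 near-identical H2A probes sit close together at the far right.

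Among the linker histones, 3 of 5 tested H1 probes fell and the class median was -0.80. Hist1h1c (RefSeq symbol H1f2) had levels of 3.24 and 2.57 in DMEM, for the scramble-labelled and the knockdown-labelled line, and of 2.01 and 1.85 with AEPS. Both AEPS arrays were thus below both DMEM arrays, and the fall was 1.96-fold (log2 -0.97 ± 0.18 SE, adjusted p = 0.0463). Hist1h1b (H1f5), the H1 probe with the highest mean signal, went from 5.80 and 5.20 in DMEM to 4.98 and 4.39 (-0.82 ± 0.12, adjusted p = 0.0314). Its fall was of nearly equal size in both lines, at -0.82 and -0.81. Hist1h1a (H1f1) fell by 0.80 on the log2 scale (adjusted p = 0.0490), from 1.79 and 1.30 to 0.80 and 0.68.

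The other H1 probes were not called. Hist1h1e had an AEPS effect of -0.45 (adjusted p = 0.111). Hist1h1t, the testis form of H1, was dim, with levels of -4.00 and -3.27 in DMEM and -3.27 and -3.36 with AEPS. Its low point was the scramble-labelled DMEM array, the other 3 arrays lay close together, and its AEPS effect was 0.32 ± 0.24 (adjusted p = 0.409).

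The core histone H2A had 15 tested probes, of which 5 fell and 1 rose. The median was -0.30 over the 7 near-identical probes, of which none was called, and -0.75 over the other 8, which held all 6 calls. Hist3h2a, the member of the Hist3 cluster on chromosome 11 that was measured, went from 1.88 and 1.81 in DMEM to 0.80 and 0.89 with AEPS. Its AEPS effect was -0.999 ± 0.13 (adjusted p = 0.0256), and the 2 lines were close to each other in both media.

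Hist1h2ab fell from 7.50 and 7.26 to 6.68 and 6.46 (-0.81, adjusted p = 0.0318). Hist2h2ab, in the Hist2 cluster on chromosome 3, fell from -1.83 and -1.86 to -2.61 and -2.67 (-0.80, adjusted p = 0.0328). Hist1h2aa, the testis form of H2A, fell from -0.26 and -0.21 to -0.998 and -0.95 (-0.74, adjusted p = 0.0372). The last of the 5 was the probe A_52_P498208 of Hist1h2ak, with -0.75 (adjusted p = 0.0361). The one member that rose was Hist1h2ac. It was not well above background on either DMEM array, so only a bound can be given: it was at least 1.62-fold higher with AEPS (adjusted p = 0.0461). It passed the filter only through the arrays on which it was high, and the call was lost with normexp background correction (0.0753), with quantile normalization (0.0599) and in the authors' deposited value table (0.0609). Quantile normalization and that table gave nearly the same AEPS effects.

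Of 9 tested H2B probes 3 fell, with a class median of -0.53. Hist2h2be (H2bc21), read at chr3:96026893-96026952 of the mm9 build on the plus strand, had the strongest fall of all members. Its levels were -1.19 and -0.32 in DMEM and -2.43 and -1.75 with AEPS. The difference was 2.52-fold (-1.33 ± 0.13, adjusted p = 0.0168) and the same direction was seen in each line, at -1.24 and -1.43. It was also higher on the knockdown-labelled array of each medium. Hist2h2bb, the H2B probe with the highest mean signal, fell from 3.91 and 4.38 to 3.32 and 3.59 (-0.70, adjusted p = 0.0487). Hist1h2bb fell from -2.34 and -2.49 to -3.04 and -3.16 (-0.68, adjusted p = 0.0427), and this call was lost with normexp background correction (-0.27, adjusted p = 0.103). The least negative H2B effect was that of Hist1h2bp, a dim probe with 0.14 ± 0.20 (adjusted p = 0.655).

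Of 8 tested H3 probes 4 fell, with a class median of -0.68. Hist1h3g (H3c8), on the plus strand of chr13:23627719-23627778 in mm9, had levels of 1.18 and 0.36 in DMEM and of -0.16 and -0.44 with AEPS. The DMEM arrays of the lines stood further apart than the AEPS arrays, and the fall was 2.10-fold (-1.07 ± 0.18, adjusted p = 0.0415). Hist2h3c2-ps, listed by RefSeq as H3c15, fell by 0.84 on the log2 scale (adjusted p = 0.0310). Hist1h3i and Hist2h3c1 each fell by 0.76 (adjusted p = 0.0353 and 0.0485). Hist1h3d was the H3 probe with the highest mean signal, and it was not called. Its levels were 6.75 and 6.74 in DMEM and 6.99 and 6.70 with AEPS, an effect of 0.10 ± 0.14 that turned to -0.13 with quantile normalization and in the authors' value table. Hist1h3c likewise stayed close, with an effect of -0.03 (adjusted p = 0.875). Its probe shares a run of 36 bases with that of Hist1h3f, which had an effect of -0.53. How much these genes add to each other's signal was not tested.

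H4 had 12 tested probes and none was called by limma. In 10 of them both DMEM arrays lay above both AEPS arrays, against 25.3% of all probes tested. The class median was -0.49, and 10 of 12 effects were below 0. Hist1h4k, whose probe A_55_P2091145 had the highest mean signal of the class, went from 7.75 and 7.67 in DMEM to 7.40 and 7.01 with AEPS (-0.50 ± 0.14, adjusted p = 0.102). The strongest effect was that of the Hist2h4 probe A_55_P1974967, from -2.83 and -2.28 to -3.28 and -3.20 (-0.68 ± 0.17, adjusted p = 0.0779). The AEPS differences of H4 were larger in the knockdown-labelled line, with a median of -0.61 against -0.35, and such a difference between the lines is what this model takes as error. The count of H4 calls depended on the setting. It was 9 with normexp background correction, where 10.9% of all probes were called lower. With an intensity trend in the variance prior it was 10, where 13.4% were, and with quantile normalization it was 1.

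By cluster, 9 of the 37 tested probes of Hist1 on chromosome 13 fell, with a median of -0.47. Of the 10 of Hist2 on chromosome 3, 5 fell, with a median of -0.69. The other measured members were Hist3h2a, which fell, and 1 probe of Hist4h4 on chromosome 6, at -0.49 (adjusted p = 0.0905).

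Among the probes that hold or begin in the stem-loop, AEPS effects differed with the number of bases past it. This grouping was made after the values had been seen. The 5 probes with the stem-loop near their 3′ end had effects between -1.07 and -0.55, and 3 of them fell (Hist1h3g, Hist1h3i and Hist2h2bb). Hist1h3a had -0.60 (adjusted p = 0.0546) and Hist1h4m -0.55 (adjusted p = 0.0672). The 2 probes found that lie mostly past the stem-loop stood at -0.03 and 0.14, and neither was called. A probe wholly past the stem-loop would not be found by this search. Hist1h2ae, with 48 bases past the stem-loop, had levels of -1.71 and -2.55 in DMEM and of -1.71 and -2.61 with AEPS. Hist2h2aa1, with 38 bases past it, had 1.59 and 2.17 in DMEM and 1.63 and 2.41 with AEPS. In both genes the AEPS arrays thus lay beside the DMEM array of the same line, and the lines stood apart from each other. Both are H2A genes, while the 5 probes with the stem-loop near their 3′ end read H3, H2B and H4 genes. Among these probes, position and histone class thus cannot be told apart. Of the H2A probes without the stem-loop, 5 fell and 1 rose. On the array's coordinates the near-identical probe of Hist2h2aa2 (chr3:96049837-96049896) lies just before that of Hist2h2aa1 (chr3:96049949-96050008), both on the plus strand. Hist2h2aa2 had an effect of -0.35. With only 2 probes mostly past the stem-loop the difference between the groups has no test, and whether these signals come from longer transcripts was not tested.

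**Figure D2:**
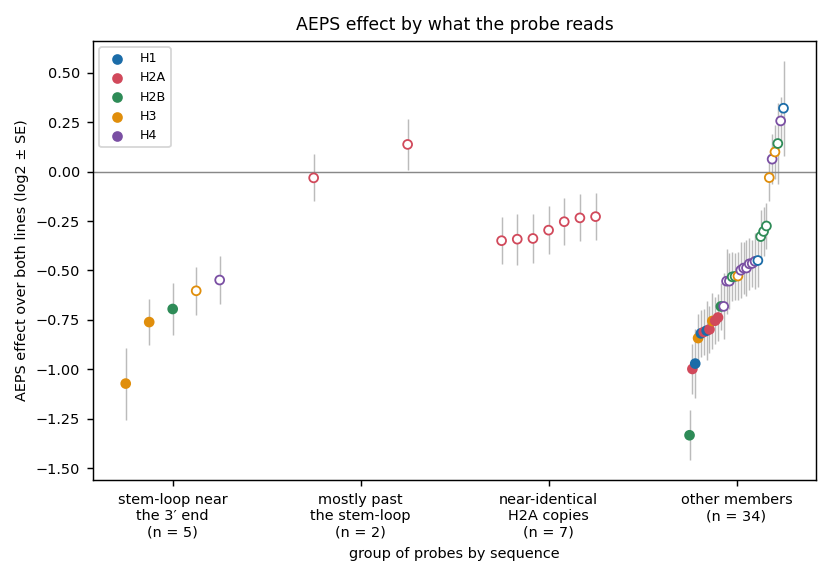
AEPS effect over both lines (vertical axis, log2, with its SE as a bar) of the 48 histone cluster probes, in 4 groups by what the probe sequence reads; colour gives the class and filled points were called by limma. The 5 probes with the stem-loop near the 3′ end lie between -1.07 and -0.55, the 2 probes mostly past it at -0.03 and 0.14, and the 7 near-identical H2A probes between -0.35 and -0.23. Probes without the stem-loop, among them any wholly past it, are in the remaining groups.

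The 7 near-identical H2A probes had effects between -0.35 and -0.23, which is smaller than most other members. Hist1h2ah, with the highest mean signal of all H2A probes, went from 9.72 and 9.71 in DMEM to 9.49 and 9.26 with AEPS (-0.34 ± 0.13, adjusted p = 0.168). Hist2h2aa2 had the strongest effect of the 7, at -0.35 (adjusted p = 0.137). All 7 were among the brightest probes of the array, with processed intensities from 187319 to 497296 under a scanner limit of 778711. No member spot was marked as saturated. Leaving out probes that share 20 or more bases with a member, 159 probes of other genes were at least as bright. Their median AEPS effect was 0.16, within -0.18 and 0.56. A probe for H2afj, an H2A gene outside the clusters, shares a run of 38 bases with the Hist2h2aa2 probe and of 29 bases with 4 others of the 7, and had an effect of -0.36 (adjusted p = 0.133). How much the copies of H2A add to one another's signal was not tested.

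A few genes were read by a pair of probes, which shows how far probe choice decides the value. Hist1h2ak had -0.23 (adjusted p = 0.265) at the near-identical stretch and -0.75 at the probe A_52_P498208, which lies 333 bases upstream. The levels of this upstream probe were 6.77 and 6.47 in DMEM and 6.00 and 5.73 with AEPS, with no overlap. Hist1h4i had 0.26 (adjusted p = 0.237) at the probe A_55_P2174198 and -0.46 (adjusted p = 0.0831) at A_55_P2158697, which lies 460 bases upstream. The first of these shares a run of 21 bases with a probe of Galns and, on the other strand, with one of Slc10a1, so its gene assignment is uncertain. The probes of Hist1h4k were close to each other, at -0.50 and -0.55, and those of Hist2h4 had -0.45 and -0.68.

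In 8 of the 48 members measured on all arrays the AEPS effect was above -0.1. Besides Hist1h2ae, Hist2h2aa1, Hist1h3c, Hist1h3d, Hist1h1t, Hist1h2bp and the Hist1h4i probe given above, this was Hist1h4h, at 0.06 (adjusted p = 0.750). Their levels ranged from dim to bright, and none of the 8 was called in either direction.

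The promoters of the genes were read from RefSeq (GRCm38.p6), from 250 bases before to 50 after the start of transcription, for 43 of the 49 genes and 44 promoters. Known elements were searched by their letters on both strands. CCAAT stood in all promoters of H1 (6), H2A (14), H2B (10) and H3 (6) and in 2 of 8 of H4, against 37.4% of all 32851 promoters. The octamer ATTTGCAT stood in 7 of 14 H2A and 6 of 10 H2B promoters and in none of the other classes, against 1.74% of all. The letters AAACACA, the H1 box, stood in 5 of 6 H1, 2 of 14 H2A and 2 of 10 H2B promoters and in 7.18% of all. TATAAA stood in 13.6% of all and in 4 of 6, 10 of 14, 5 of 10, 2 of 6 and 5 of 8 of the classes from H1 to H4. The promoter of Hist1h1b, which fell, shows the elements found in H1 genes. That of Hist1h2bm holds the octamer, and also an H1 box and no TATAAA. Capitals mark the matches on either strand.
Hist1h1b: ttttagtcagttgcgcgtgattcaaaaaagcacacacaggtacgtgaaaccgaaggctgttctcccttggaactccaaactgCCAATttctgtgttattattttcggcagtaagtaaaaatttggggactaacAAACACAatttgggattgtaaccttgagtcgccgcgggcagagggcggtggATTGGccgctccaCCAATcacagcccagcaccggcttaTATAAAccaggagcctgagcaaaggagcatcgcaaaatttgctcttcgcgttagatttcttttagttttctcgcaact
Hist1h2bm: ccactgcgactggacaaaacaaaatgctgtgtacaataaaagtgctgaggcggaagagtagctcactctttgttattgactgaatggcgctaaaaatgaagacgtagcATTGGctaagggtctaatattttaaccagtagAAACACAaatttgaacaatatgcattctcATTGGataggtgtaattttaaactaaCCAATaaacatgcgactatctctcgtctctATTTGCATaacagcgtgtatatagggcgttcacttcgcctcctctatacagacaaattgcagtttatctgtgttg
The first lies on the minus strand of chr13:21780576-21780875 and the second on the plus strand of chr13:21721794-21722093. Hist1h2bm had levels of 3.76 and 3.82 in DMEM and of 3.29 and 3.22 with AEPS (-0.53, adjusted p = 0.0702). A match of letters does not show that a factor binds there.

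Some H2A and H2B genes start back to back and share their promoter region, and 3 such pairs had both genes measured. Hist1h2aa fell (-0.74), and its partner Hist1h2ba, the testis form of H2B, 281 bases away had -0.53 (adjusted p = 0.0665). Hist1h2an had -0.34 (adjusted p = 0.154) and Hist1h2bp 0.14, with starts 240 bases apart. Hist1h2ae had -0.03 and Hist1h2bg -0.28 (adjusted p = 0.203), with starts 180 bases apart. The differences between partners were not tested, and the Hist1h2an probe is one of the near-identical H2A probes. In the latter 2 pairs a partner was one of the 8 members above -0.1.

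The next comparison takes the lines apart. On 2 arrays without replicates a probe was called by size, at 2-fold or more. In the scramble-labelled line 4 of 49 members were lower with AEPS and 0 higher, where 5.24% and 6.66% of all probes were. These were Hist1h3g (-1.35), Hist2h2be (-1.24), Hist1h1c (-1.23) and Hist3h2a (-1.09). In the knockdown-labelled line only Hist2h2be (-1.43) was 2-fold lower and 0 members were higher, against 3.67% and 4.46% of all probes. The median difference over the 48 members was -0.38 in the scramble-labelled line and -0.60 in the other, and 41 of the 48 were lower in both. In the scramble-labelled line 42 of the 48 were below 0, against 45.0% of all probes. In the knockdown-labelled line 45 were, against 45.1%. The share of all probes lower in both lines is not given here. Single arrays differ by an unknown amount between cultures, and these differences have no test.

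**Figure D3:**
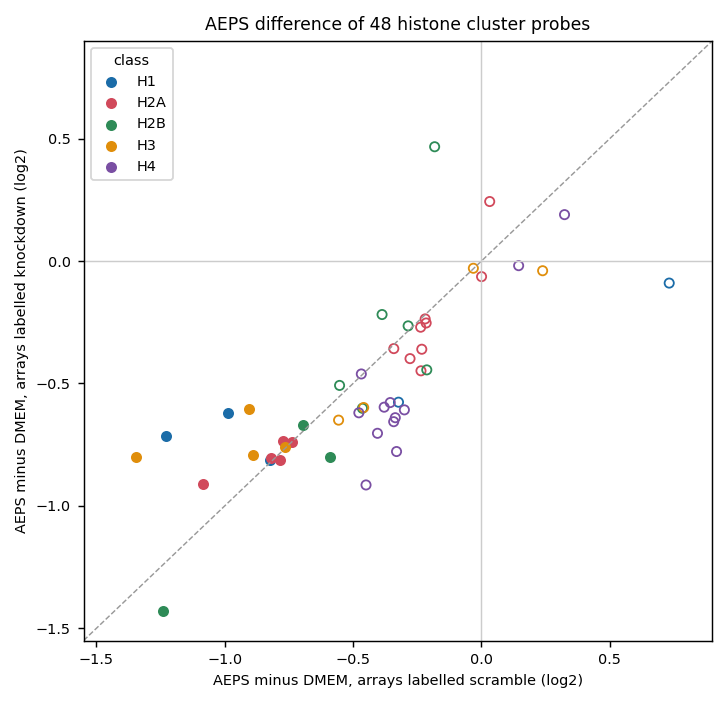
AEPS minus DMEM difference of the 48 histone cluster probes on the scramble-labelled arrays (horizontal axis, log2) and the knockdown-labelled arrays (vertical axis, log2), coloured by class, with filled points for probes called by limma over both lines and a dashed line of equality. Of the 48 points 41 lie below 0 on both axes, and 11 of 12 H4 points lie below the line of equality.

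The response difference, taken as the AEPS difference in the knockdown-labelled minus that in the scramble-labelled line, reached 2-fold in 0 of 48 members, against 1.68% of all probes lower and 0.522% higher. Its median was -0.05 over the members and 0.03 over all probes measured on the 4 arrays. It ran from -0.82 for Hist1h1t to 0.65 for Hist1h2bp, which were both dim. In the H4 class the difference was negative in 11 of 12 probes, with a median of -0.26. For Hist1h4c the AEPS difference was -0.33 in the scramble-labelled and -0.78 in the knockdown-labelled line. H4 genes are close copies of each other, so their probes may not be independent readings, and the difference leaves no degree of freedom for a test.

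The last comparison of the members is between the lines at equal medium. No member was called by limma for the line, where 0.288% of all probes were called lower and 0.377% higher in the knockdown-labelled line. At an unadjusted p under 0.05 there were 9 of 49, against 14.4% of all probes tested. Of the members 2 were called higher and 1 lower with normexp background correction, 3 and 2 with an intensity trend. The shares of all probes called for the line under these settings are not given here. The median line effect was -0.11, against -0.00 over all probes tested. No member differed 2-fold between the lines in DMEM (1.43% of all probes lower, 2.4% higher) or with AEPS (2.69% and 1.86%). The widest line effects were those of Hist1h2ae, at -0.87 ± 0.12 (adjusted p = 0.111), and Hist2h2be, at 0.77 ± 0.13 (adjusted p = 0.141). Hist1h2ae was lower on both knockdown-labelled arrays, with differences of -0.84 in DMEM and -0.90 with AEPS, and its 2 levels within a line nearly coincided.

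Histone mRNA is made and handled by a small set of other genes, listed here from textbook knowledge. Of 22 tested genes for transcription and processing of histone mRNA 5 fell and 0 rose, with a median of -0.17. Over all probes tested, limma called 6.86% lower and 6.89% higher. The 5 were Slbp, Npat, Casp8ap2, Ccne1 and Cdk2. The other tested genes were not called, among them Lsm10 (0.54), Lsm11 (0.03), Cpsf2 (0.04), Cpsf3 (-0.11) and Sympk (-0.13). Slbp, which binds the stem-loop, had levels of 1.82 and 1.63 in DMEM and of 0.64 and 0.61 with AEPS (-1.10 ± 0.13, adjusted p = 0.0221). Npat, the coactivator of histone genes that is switched on by cyclin E and Cdk2, was well above background on both DMEM arrays and on neither AEPS array, so that it passed the filter only through the arrays on which it was high. Its level was at least 1.67-fold lower with AEPS (adjusted p = 0.0328). Casp8ap2, which takes part in histone gene expression in S phase, fell by 1.02 (adjusted p = 0.0317). Ccne1 (cyclin E) fell by 2.11 (adjusted p = 0.0232), from 4.52 and 4.14 to 1.99 and 2.46, and Cdk2 fell by 1.26 (adjusted p = 0.0236). Ccne2 was well above background on 1 array and was not tested.

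Histone chaperones carry new histones to DNA, and 4 of the 18 tested fell while 0 rose, with a median of -0.38. The share called lower over all probes tested was 6.86%. Chaf1a and Chaf1b, subunits of the complex that places H3 and H4 on replicated DNA, both fell by 1.31 (adjusted p = 0.0156 and 0.0172). Asf1b fell by 0.94 (adjusted p = 0.0333) and Asf1a by 0.67 (adjusted p = 0.0463). Daxx, a chaperone for the replacement form of H3, had 1.52 ± 0.38 and was not called (adjusted p = 0.0826), with AEPS differences of 2.24 and 0.80 in the lines.

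Histone genes outside the clusters are mostly replication-independent, and 1 of 12 tested fell, with a median of -0.04. That count is near the share called lower over all probes tested (6.86%). The gene called was H1f0, a replacement form of H1, at -1.29 ± 0.16 (adjusted p = 0.0246). For comparison, 16 of 24 tested genes of S phase and DNA replication fell and 0 rose, with a median of -0.88. Among the strongest were Cdc6, which loads the replicative helicase, at -2.73 (adjusted p = 0.0182), Tk1, a thymidine kinase, at -1.99 (adjusted p = 0.0207), and Rpa2 at -1.52 (adjusted p = 0.0139). Pcna, the sliding clamp of DNA polymerase, fell by 0.80 (adjusted p = 0.0358). In such bulk RNA, fewer cells in S phase and less histone mRNA per cell cannot be told apart.

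**Figure D4:**
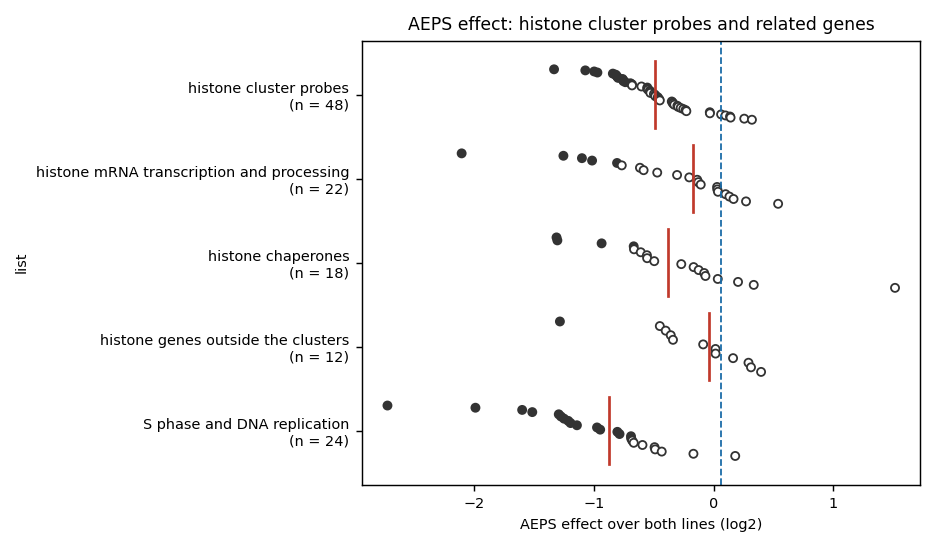
AEPS effect over both lines (horizontal axis, log2) of the histone cluster probes and of 4 lists of related genes; each point is 1 probe or 1 gene, filled where limma called it, the red bar is the median of the list and the dashed line the median over all probes tested. The medians are -0.49 for the cluster probes and -0.17 for the genes of histone mRNA transcription and processing. They are -0.38 for chaperones, -0.04 for histone genes outside the clusters and -0.88 for S phase genes.

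Markers of other cell types were read in the same arrays. Of 3 fibroblast markers 2 rose with AEPS, where 6.89% of all probes tested were called higher. Col1a1 was well above background on both AEPS arrays and on 1 of the 2 DMEM arrays, with levels of -5.15 and -5.60 in DMEM and -2.85 and -3.87 with AEPS (adjusted p = 0.0162). Col1a2 rose by 0.71 on the log2 scale (adjusted p = 0.0426). The third was not above background. Of the male germ cell markers, Prm1, Prm2 and Tnp1 were well above background on all 4 arrays, while Ddx4 and Dazl were on none. Of the T cell, B cell and epithelial markers 2 of 4, 2 of 3 and 2 of 3 were not above background on any array. Of those lists 2 T cell markers, 1 B cell marker and 0 epithelial markers could be tested, and none was called. The part of any of these in the histone values was not tested.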

How the data were processed

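Total RNA was measured on 4 Agilent 1-colour arrays. The deposited scanner files hold a linear intensity from Feature Extraction 10.7.1.1, per the file headers, background-subtracted and not scaled between arrays; probe coordinates are mm9. The authors' deposited value table holds log2 values made in a way that the sources used here do not give, and it served as an alternative. Its AEPS effects nearly equalled those with quantile normalization, with a median over the members of -0.57 in both. These settings are thus not separate checks of the AEPS effect. The column names of the value table match the samples, and 0 columns of values were left unused for want of a sample.

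Here log2 of the processed intensity minus each array's 75th percentile was used, without control and outlier spots, and spots of a probe were averaged. Probes well above background on 2 or more arrays entered limma 3.58.1 (R 4.3.3, lmFit and eBayes, line plus treatment, prior of 2.84 degrees of freedom and SD 0.137). The H1 to H4 classes come from the gene names. Official names came from RefSeq by accession for 52 members and by synonym for 2. Lists used the brightest probe of a gene.

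Named are members called, or 2-fold in a pair, the brightest and the most and least changed of each class, genes with 2 probes, up to 4 called genes of each other list, and Slbp, Npat, Casp8ap2, Pcna and Ccne2. A gene that this rule would name is not reported here. Other members and list genes were named, the sequence groups made and the printed sequences picked after the values were seen. The members and lists were chosen with earlier results of these data known.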

Additional observations from a re-analysis of the deposited data

Results flagged for a closer look

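In 5 members the AEPS difference had opposite signs in the lines, a difference that was not tested because each group holds 1 array. Hist1h1t had 0.73 on the scramble-labelled arrays and -0.09 on the knockdown-labelled arrays. Hist1h2bp had -0.18 and 0.47 in the same order. Hist1h3d had 0.24 and -0.04, and Hist1h4h had 0.15 and -0.02. Hist1h2ae had 0.00 and -0.06, both close to 0. Hist1h1t and Hist1h2bp were dim probes.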

How the results depend on the processing

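The count of 15 members lower with AEPS became 29 with normexp background correction, 37 with an intensity trend in the prior and 0 without a filter on dim probes. Of the 15, 14 were kept with normexp and 15 each with quantile normalization (17 calls), the trend, the filter on all 4 arrays (22) and the authors' value table (17). Quantile normalization and the value table gave nearly the same AEPS effects, so they are not separate checks. The 1 member called higher became 0 with normexp, with quantile normalization, without a filter, with the filter on all 4 arrays and in the value table. For the line, 0 lower became 1 (normexp) and 2 (trend), and 0 higher became 2 and 3. The median line effect of -0.11 turned to 0.087 in the value table, whose line labels are opposite to those of the scanner files. The AEPS effect of Hist1h3d turned to -0.13 with quantile normalization and in the value table. In the scramble-labelled pair, 4 lower became 2 in the value table and 15 at 1.5-fold, with 2 higher at 1.5-fold. In the knockdown-labelled pair, 1 lower became 2 with quantile normalization, 6 in the value table and 26 at 1.5-fold, with 1 higher at 1.5-fold. At 1.5-fold, 5 members were lower and 3 higher between the lines in DMEM, 2 and 4 with AEPS, and the response difference held 1 lower and 1 higher. A looser rule can raise the count in any set of probes. For 1.5-fold and most of these settings the share over all probes is not given here, so the counts describe the members alone. Apart from the opposite line labels, the causes of these shifts were not tested. No pairing by replicate number was possible because the groups share only number 1. The line term of the model already sets each AEPS array against the DMEM array of its line. No replicate could be left out, since each group has 1 array. Arrays limit precision by their number, and the 5 members not above background have no measured change.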
